A study of Mus musculus with 16 samples.

Results

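The genes described here are 38 genes of the lysosome, the acidic compartment in which cells break down proteins, glycans and lipids. They were chosen by name: every non-control probe whose gene name in the scanner files was one of the 38 was taken. They were read by 51 of 55681 non-control probes, and all 38 were among the 22644 genes tested. The set held 10 cathepsins, 16 other hydrolases and their activators, 6 membrane and sterol transfer proteins, 5 subunits of the proton pump, and the transcription factor Tfeb.

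All samples were primary fibroblasts from mouse lung, passaged 3 or more times and collected 48 hours after transfection with a small interfering RNA (siRNA), a short duplex that directs the degradation of a matching transcript. The siRNA was directed against Lox in the group siLox, against Loxl1 in siLoxL1 and against Loxl2 in siLoxL2, and a scrambled sequence was used in the control group scr, and each group was read on 4 one-colour arrays. The targets are members of the lysyl oxidase family, secreted enzymes needed for cross-linked collagen and elastin. Exogenous expression is named in the series title but an siRNA in every label, and the labels were followed. Strain, sex and age of the mice are not given in the sources used here, nor is it said whether replicates were separate cultures. The p-values therefore measure only the spread among these samples.

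Lysosomal hydrolases are made in the endoplasmic reticulum, tagged and sorted by receptors, and work at the acid pH that the vacuolar proton pump (V-ATPase) sets up. Membrane proteins such as Lamp1 and Lamp2 line the organelle, and Npc1 and Npc2 move cholesterol out of it. TFEB is a transcription factor known to bind a short palindromic element in the promoters of many lysosomal genes. In fibroblasts, lysosomal cathepsins also take part in the breakdown of collagen that has been taken up from the matrix.

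A level is the log2 signal of a gene minus the 75th percentile of its array, given for replicates 1 to 4 in that order. A difference is the log2 difference of 2 group means with the standard error (SE) of a limma fit of the 8 arrays compared, and a gene passed when its Benjamini-Hochberg adjusted p over all 22644 genes was under 0.05. Slide 1 held siLox and scr, and slide 2 held siLoxL1 and siLoxL2, with each group in its own row and each replicate number in its own column. Only siLox against scr and siLoxL1 against siLoxL2 can thus be compared on 1 slide, and siLoxL1 or siLoxL2 against scr cannot be told apart from the slides. Between 49.2% and 52.3% of the spots were well above background on slide 1, and between 60.4% and 63.1% on slide 2. How precise a value is depends on the number of arrays. All 38 genes were well above background on all 16 arrays.

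The knockdowns were read first. Lox had levels of 0.39, 0.89, 1.25 and 2.04 in siLox, against 4.16, 4.08, 4.15 and 3.88 in scr, a difference of −2.92 ± 0.31 (limma adjusted p = 0.0032). The siLox arrays were not changed in Lox alone. Loxl2 (−0.71 ± 0.17, limma adjusted p = 0.0248) and Loxl1 (−0.49 ± 0.13, limma adjusted p = 0.0347) were also lower in siLox than in scr. For Loxl1, siLoxL1 minus siLoxL2 was −1.15 ± 0.06 (limma adjusted p = 0.000216). Loxl2 was 0.30 lower in siLoxL2 than in siLoxL1, which did not pass in the limma fit (adjusted p = 0.0551), while the groups did not overlap (exact two-sided permutation p = 0.0286, the smallest that 4 against 4 arrays allow). All 10 fibroblast markers were well above background on every array. One value stood apart: Fn1 read −2.60 on siLoxL1 replicate 4, against 8.25 to 8.33 on siLoxL1 replicates 1 to 3, and the fibroblast sum of that array was 793. Of 17 macrophage and leukocyte markers 16 were measured, with a summed signal of 27.9 to 51.9 over the 16 arrays, against 765 to 1179 for the fibroblast markers (75th percentile = 1).

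The probes of 60 bases that stood for 6 members with large differences between siLox and scr are shown, with the second Gm2a probe, so that the transcript read can be identified. Positions come from the scanner files and are in mouse build mm9, with the strand of the gene, and the files do not say in which exon or untranslated region a probe lies.
Ctsk probe (chr3:95313165-95313224, plus strand): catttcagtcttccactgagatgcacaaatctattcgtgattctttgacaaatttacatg
Ctss probe (chr3:95360245-95360304, plus strand): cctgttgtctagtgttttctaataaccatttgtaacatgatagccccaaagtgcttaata
Gm2a probe, brighter (chr11:54926446-54926505, plus strand): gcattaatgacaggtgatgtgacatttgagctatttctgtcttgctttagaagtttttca
Gm2a probe, dimmer (chr11:54923856-54923915, plus strand): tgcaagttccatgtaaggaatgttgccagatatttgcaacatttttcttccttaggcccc
Tpp1 probe (chr7:112893532-112893591, minus strand): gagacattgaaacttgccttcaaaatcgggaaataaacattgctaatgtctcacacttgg
Ids probe (chrX:67596264-67596323, minus strand): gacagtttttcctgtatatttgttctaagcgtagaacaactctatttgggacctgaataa
Atp6v1b2 probe (chr8:71636799-71636858, plus strand): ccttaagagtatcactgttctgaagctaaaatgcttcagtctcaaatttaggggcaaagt

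In siLox, 15 of the 38 lysosomal genes were lower than in scr and 2 were higher, and 21 did not pass. Soluble hydrolases made up most of the lower genes: 4 cathepsins and 9 other hydrolases or activators, with 2 membrane proteins beside them. The 2 higher genes were the cathepsin Ctss and the proton pump subunit Atp6v1b2. The median difference of the 38 genes was −0.19, against −0.05 for all genes tested. In this comparison 25.0% of all genes passed, 13.5% lower and 11.5% higher, while 44.7% of the 38 passed, with 39.5% of the 38 lower. The groups did not overlap at 16 of the 38 genes, against 30.6% of all genes, and 28 differences were below 0 against 10 above. At an unadjusted p under 0.05, 21 of the 38 differed, against 41.5% of all genes.

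The count of lower genes depended on single arrays. It was 4, 3 and 3 without siLox replicate 1, 2 or 3, 8, 4 and 3 without scr replicate 1, 2 or 3, and 15 and 16 without replicate 4 of siLox or scr. The count of higher genes was 4 without scr replicate 4 and 1 without any other array, and the calls over all genes moved with it, from 1830 to 7828 against 5655. Ctsk, Tpp1, Ids and Atp6v1b2 passed in each of these 8 fits. No difference of these 17 genes changed its direction in any of the 19 alternatives tried.

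**Figure D1:**
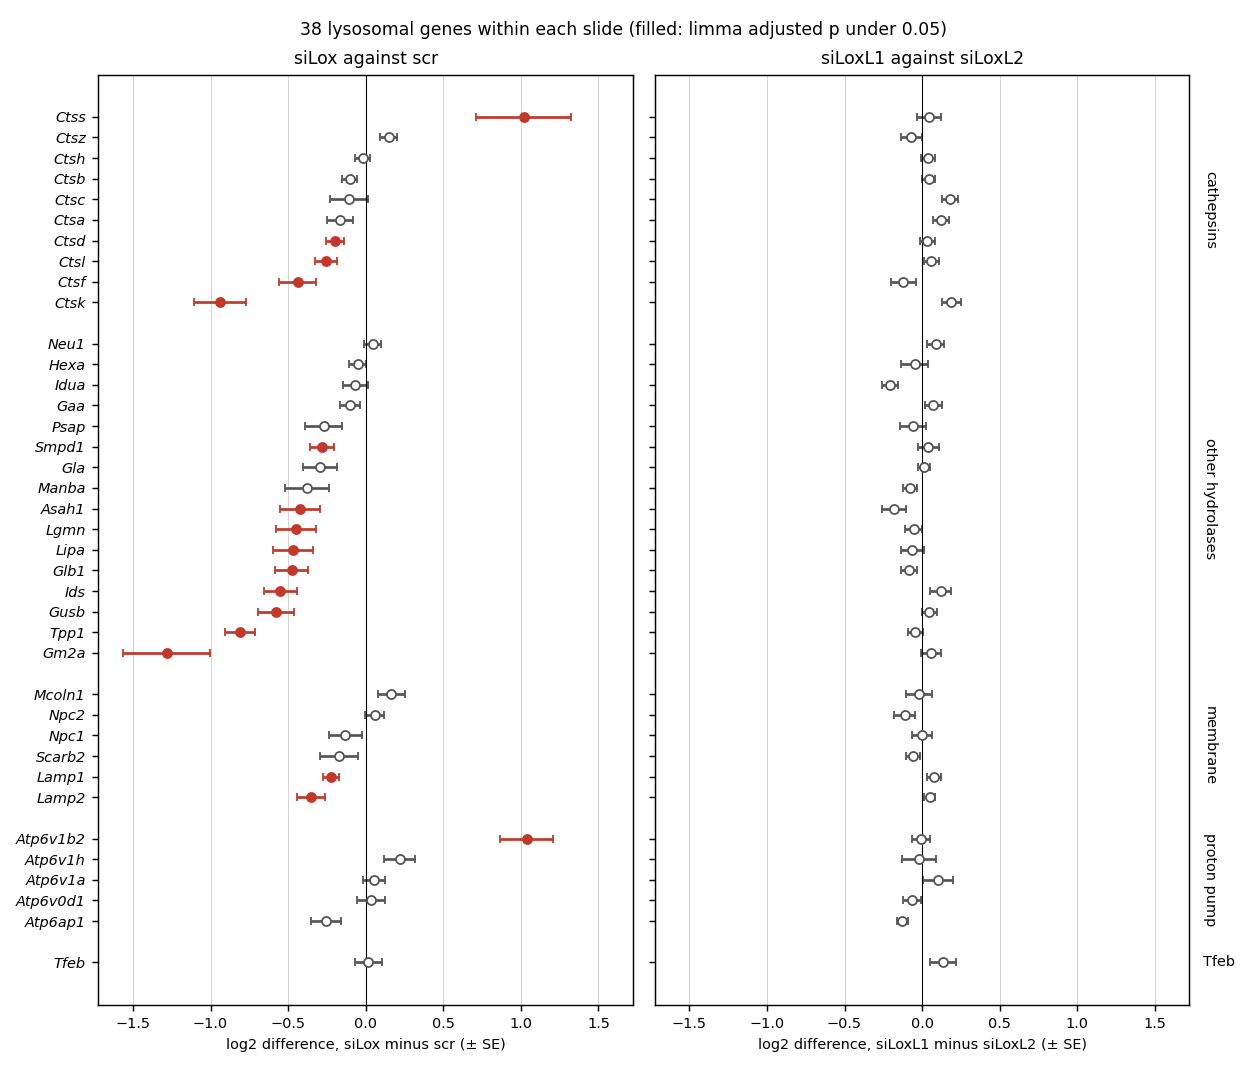
Log2 differences of the 38 lysosomal genes (± SE of the limma fit, x axis), siLox minus scr on the left and siLoxL1 minus siLoxL2 on the right, grouped by role down the page. Filled points passed at an adjusted p under 0.05: 17 on the left, Gm2a lowest at −1.28 and Atp6v1b2 highest at 1.04, and 0 on the right, where every point lies between −0.21 and 0.19.

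Among the 10 cathepsins, Ctsk, Ctsf, Ctsl and Ctsd were lower in siLox and Ctss was higher, with a median difference of −0.14. Ctsk, a cysteine protease known for degrading collagen in osteoclasts and fibroblasts, had levels of 3.48, 3.63, 3.76 and 4.01 in siLox, against 4.99, 4.68, 4.69 and 4.29 in scr. Every siLox array lay below every scr array, and replicates 4 of the groups stood nearest to each other. The difference was −0.94 ± 0.17 (limma adjusted p = 0.0124), so that siLox had 52.2% of the scr level. 

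The other lower cathepsins changed less. Ctsf, a cysteine cathepsin, had levels of −0.65, −0.53, −0.34 and −0.20 in siLox, against 0.13, 0.11, 0.02 and −0.22 in scr, so that siLox replicate 4 overlapped scr replicate 4 (−0.44 ± 0.12, limma adjusted p = 0.0371). Ctsl, a widely expressed cysteine endopeptidase, read 6.78, 6.88, 6.86 and 7.02 in siLox, against 7.26, 7.10, 7.11 and 7.08 in scr, with no overlap (−0.26 ± 0.07, limma adjusted p = 0.0409). Ctsd, the main aspartic protease of the lysosome, was lower by a similar amount without overlap (−0.20 ± 0.06, limma adjusted p = 0.0409). With quantile normalization, and in the authors' value table, Ctsl and Ctsd did not pass. The 5 cathepsins that did not pass were Ctsa, Ctsb, Ctsc, Ctsh and Ctsz, with differences between −0.17 and 0.15. Of these, Ctsz and Ctsb did not overlap between the groups: Ctsz averaged 5.54 ± 0.02 in siLox and 5.39 ± 0.07 in scr, and Ctsb 6.37 ± 0.03 in siLox and 6.47 ± 0.03 in scr (SD, n = 4 each). Ctsc stood at −0.11, while its second, dimmer probe gave −0.70 and did not pass either (limma adjusted p = 0.100 over all probes).

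Ctss, a cysteine cathepsin known from macrophages and other antigen-presenting cells, was higher in siLox. Its levels were 2.25, 2.45, 2.07 and 2.33 in siLox, against 0.45, 1.18, 1.32 and 2.09 in scr. The siLox arrays lay close together, while the scr arrays were spread widely, and scr replicate 4 fell inside the siLox range. The difference was 1.02 ± 0.31 (limma adjusted p = 0.0475), a 2.03-fold level that did not pass when any array other than scr replicate 4 was left out. The summed signal of the 16 macrophage and leukocyte markers was 34.3, 41.8, 37.8 and 42.7 in siLox, against 27.9, 31.0, 33.0 and 40.5 in scr. In scr, the array with the lowest Ctss also had the lowest marker sum, and the array with the highest Ctss the highest. In siLox this was not so: Ctss was lowest in replicate 3 and highest in replicate 2, and the sum was lowest in replicate 1 and highest in replicate 4. Of these markers Mrc1 (0.65 ± 0.10, limma adjusted p = 0.00839) and Marco (1.08 ± 0.15, limma adjusted p = 0.0073), both dim, were higher in siLox and 0 were lower. That is 12.5% higher, a share close to the 11.5% of all genes. Of the 16 differences 14 were above 0 and 2 below, with a median of 0.65. Unadjusted limma p-values were under 0.05 at 9 of the 16, against 41.5% of all genes. The brighter markers did not pass: Csf1r (0.11), Itgam (−0.04), Cd14 (−0.01), Lyz1 (0.52), Lyz2 (0.45), Tyrobp (0.75) and Fcer1g (0.73). Cd74 was well above background on 1 of 4 arrays in each group, and Itgax on 4 of 4 in siLox and 3 of 4 in scr. The part of such cells in the Ctss difference was not tested. In cultured bulk samples more or fewer cells of a type and more or less RNA per cell cannot be told apart.

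Of the 16 other hydrolases and activators, 9 were lower in siLox and 0 were higher, with a median difference of −0.40. At an unadjusted p under 0.05, 11 of the 16 differed, and all but Neu1 had a difference below 0. Gm2a, the activator protein that presents gangliosides to hexosaminidase, had levels of −2.04, −1.89, −1.80 and −0.99 in siLox, against 0.09, −0.35, −0.39 and −0.94 in scr. Replicates 1 to 3 of the groups were well apart, and replicates 4 nearly met. The difference of −1.28 ± 0.28 (limma adjusted p = 0.0203) left 41.1% of the scr level, and the dimmer Gm2a probe gave −0.63.

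Tpp1, a peptidase that removes tripeptides from the ends of proteins, read 1.12, 1.08, 1.09 and 1.21 in siLox, against 2.12, 1.90, 2.02 and 1.70 in scr. The 4 siLox arrays lay close together, and all of them were below every scr array. Its adjusted p was the lowest of the 38 genes (−0.81 ± 0.09, limma adjusted p = 0.00456), with 57.1% of the scr level.

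Gusb, beta-glucuronidase, had levels of 2.55, 2.62, 2.63 and 2.84 in siLox, against 3.46, 3.26, 3.26 and 2.96 in scr (−0.58 ± 0.12, limma adjusted p = 0.0164). Ids, the iduronate sulfatase of dermatan and heparan sulfate breakdown, had levels of −0.50, −0.40, −0.55 and −0.20 in siLox, against 0.22, 0.08, 0.30 and −0.06 in scr (−0.55 ± 0.11, limma adjusted p = 0.0155). Neither gene overlapped between the groups. A second, dimmer Gusb probe gave −0.33 and did not pass (limma adjusted p = 0.104 over all probes). Glb1 (beta-galactosidase), Lipa (acid lipase), Lgmn (asparaginyl endopeptidase), Asah1 (acid ceramidase) and Smpd1 (acid sphingomyelinase) were lower by between −0.48 and −0.28, with adjusted p-values of 0.0212 to 0.0482 in the limma fit. Asah1 did not pass with quantile normalization or in the authors' value table. Lgmn and Asah1 overlapped between the groups, and Glb1, Lipa and Smpd1 did not.

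The 7 hydrolases and activators that did not pass were Gla, Gaa, Hexa, Idua, Manba, Neu1 and Psap. Manba, a mannosidase, averaged 0.33 ± 0.15 in siLox and 0.71 ± 0.26 in scr, and Gla, alpha-galactosidase, 7.11 ± 0.16 in siLox and 7.40 ± 0.16 in scr (SD, n = 4 each), with limma adjusted p-values of 0.083 and 0.0833. The Gla arrays did not overlap between the groups. Psap, the precursor of the saposin activators, stood at −0.27 ± 0.12 (limma adjusted p = 0.129), and Gaa, Hexa, Idua and Neu1 had differences between −0.10 and 0.04. A second, dimmer Idua probe gave −0.27 and was past the threshold as lower, with a limma adjusted p of 0.0333 over all probes.

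Fibroblast markers stood lower beside these genes. Their summed signal was 765 to 1035 on the siLox arrays, against 1098 to 1179 on the scr arrays, with no overlap. Of the 10 markers, Col1a2, Pdgfrb, Thy1 and Vim were lower in siLox, 40% against 13.5% of all genes, and 0 were higher. The part of these markers in the lower lysosomal genes was not tested.

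**Figure D2:**
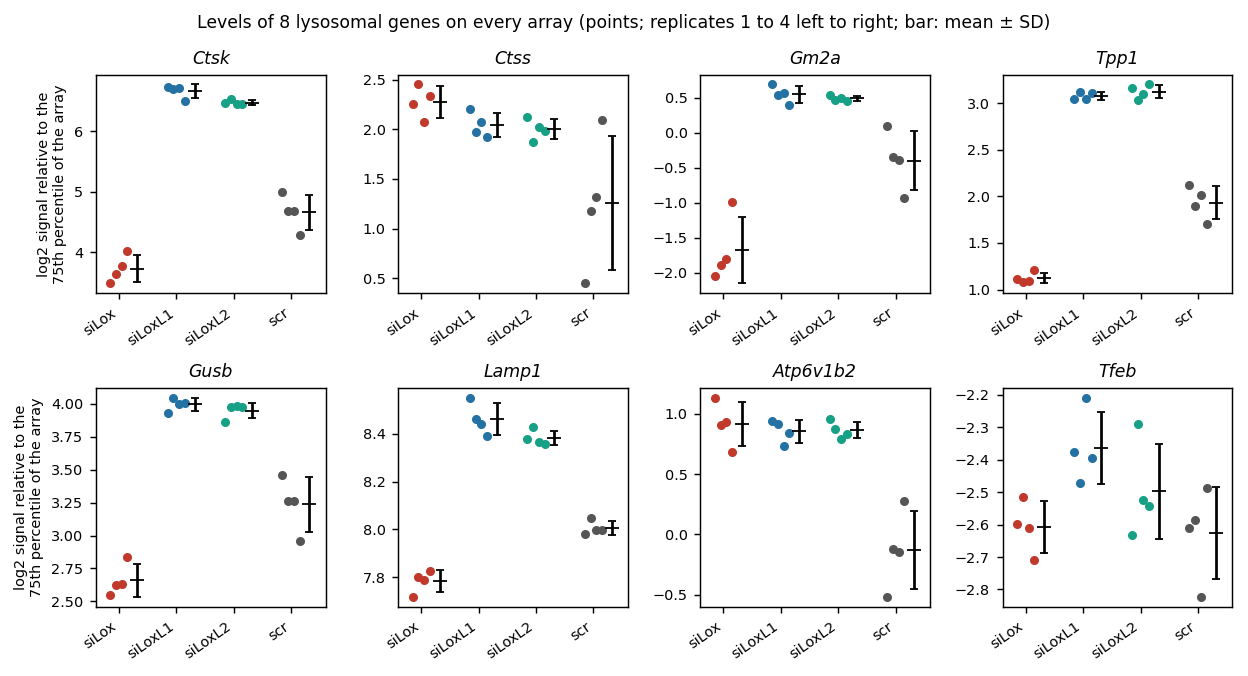
Level of 8 lysosomal genes (log2 signal minus the array's 75th percentile, y axis) on every array of siLox, siLoxL1, siLoxL2 and scr; points are replicates 1 to 4 from left to right, and bars give the mean ± SD. Ctsk, Gm2a, Tpp1, Gusb and Lamp1 are lower on every siLox array than on every scr array, Atp6v1b2 is higher, and Tfeb overlaps between siLox and scr.

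Of the 6 membrane and sterol transfer proteins, Lamp1 and Lamp2 were lower in siLox and 0 were higher. These are the heavily glycosylated proteins that coat the inner face of the lysosomal membrane. Lamp1 had levels of 7.72, 7.80, 7.79 and 7.82 in siLox, against 7.98 to 8.05 on the 4 scr arrays (−0.22 ± 0.05, limma adjusted p = 0.0226). Lamp2 had levels of 4.73, 4.67, 4.61 and 4.79 in siLox, against 5.29, 4.95, 5.04 and 4.95 in scr (−0.35 ± 0.09, limma adjusted p = 0.0303). Both genes were below scr on every siLox array, and at Lamp1 the shift was small but larger than the spread within either group. With quantile normalization the Lamp1 difference was −0.08 and did not pass. A second, dimmer Lamp2 probe gave −0.20 and did not pass (limma adjusted p = 0.0629 over all probes). Scarb2, a receptor that carries glucocerebrosidase to lysosomes, Npc1, Npc2 and the calcium channel Mcoln1 did not pass, with differences of −0.17, −0.13, 0.06 and 0.16. A second, dimmer Mcoln1 probe gave 0.69 and was past the threshold, with a limma adjusted p of 0.0361 over all probes.

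In the proton pump, Atp6v1b2 was higher in siLox, 0 subunits were lower, and the median difference of the 5 genes was 0.05. Atp6v1b2 encodes a B subunit of the cytosolic sector that splits ATP. Its levels were 1.13, 0.90, 0.93 and 0.68 in siLox, against −0.52, −0.12, −0.15 and 0.28 in scr. All siLox arrays were above all scr arrays, and replicates 4 were again nearest to each other (1.04 ± 0.17, limma adjusted p = 0.0104, a 2.05-fold level). The catalytic subunit Atp6v1a (0.05 ± 0.07) and the membrane sector subunit Atp6v0d1 (0.03 ± 0.09) did not pass. Neither did Atp6v1h, a regulatory subunit (0.22 ± 0.10, limma adjusted p = 0.135), nor the accessory protein Atp6ap1 (−0.25 ± 0.10, limma adjusted p = 0.0906). A second, dimmer Atp6ap1 probe gave −0.37 and was past the threshold as lower, with a limma adjusted p of 0.0465 over all probes.

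Tfeb was dim but above background on all arrays, with levels of −2.60, −2.52, −2.61 and −2.71 in siLox, against −2.61, −2.59, −2.82 and −2.49 in scr. The groups overlapped fully, and the difference was 0.02 ± 0.08 (limma adjusted p = 0.89). Its sign turned under 3 of the 19 alternatives.

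The arrays of a group did not lie at one distance from the other group. Among the 17 genes that passed, siLox replicate 4 was the siLox array nearest to scr at 16, and scr replicate 4 the scr array nearest to siLox at 16. Scr replicate 1 was the array farthest from siLox at 15 of them. The mean level of the 15 lower genes was 2.91, 3.00, 3.01 and 3.24 in siLox, against 3.74, 3.55, 3.58 and 3.35 in scr. These genes were chosen as lower on the same arrays, so only the order within a group is described by this mean. Lox was also highest in siLox replicate 4 and lowest in scr replicate 4, and scr replicate 4 had the highest macrophage and leukocyte sum of its group and the lowest fibroblast sum (1098) and epithelial sum (4.75). Without replicate 4 of both groups 18 genes were lower and 3 higher, arrays left out because they stood nearest to the other group, so that larger differences follow from the choice.

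**Figure D3:**
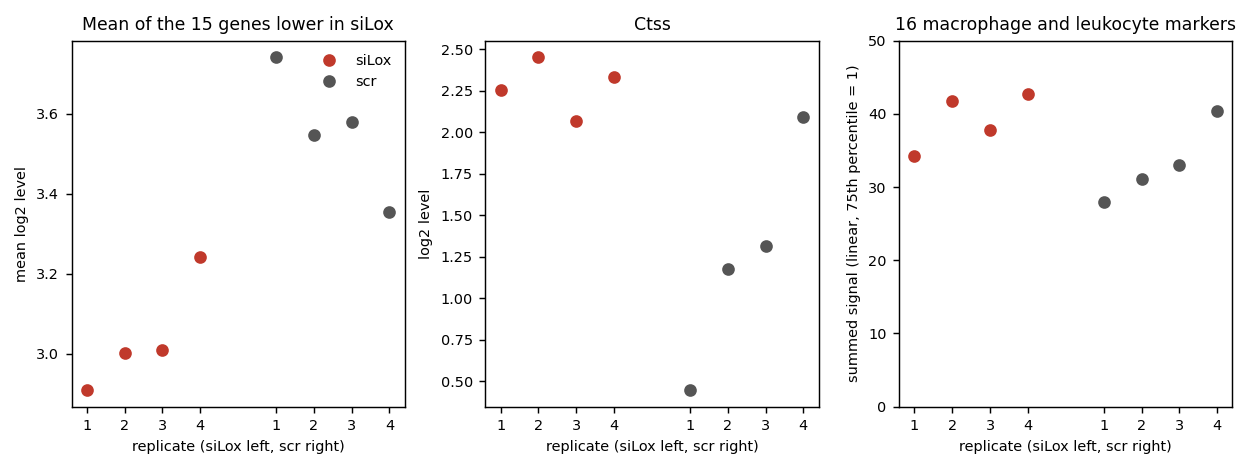
The measures shown are given by array, siLox replicates 1 to 4 on the left of each panel and scr replicates 1 to 4 on the right: the mean log2 level of the 15 genes lower in siLox, the log2 level of Ctss, and the summed linear signal of 16 macrophage and leukocyte markers (75th percentile = 1). Replicate 4 of each group is the nearest to the other group in the left panel (3.24 in siLox, 3.35 in scr), and in scr it has the highest Ctss (2.09) and marker sum (40.5).

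The promoters of the members were searched for the letters of the element that TFEB binds, on both strands of windows from 250 bases before to 50 bases after the transcription start (RefSeq, assembly GRCm38.p6). Windows were found for 32 of the 38 genes (37 windows). The E-box CACGTG was in 12 of the 37 windows (32.4%), 1 for each of 12 genes, and in 7.15% of all 32851 windows. The longer core of the element, CACGTG preceded by T and followed by A, was in 6 of the 37 windows (16.2%) and in 0.974% of all windows. Stretches of the windows with the core, and of Lamp1 with 4 E-boxes, are shown with the E-box or core in capitals, each read along the strand of its gene.
Ctsa (chr2:164833741-164833803, plus strand): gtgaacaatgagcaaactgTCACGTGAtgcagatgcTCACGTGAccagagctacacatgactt
Ctsd (chr7:142387900-142387945, minus strand): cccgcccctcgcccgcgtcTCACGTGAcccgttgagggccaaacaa
Gla (chrX:134601174-134601252, minus strand): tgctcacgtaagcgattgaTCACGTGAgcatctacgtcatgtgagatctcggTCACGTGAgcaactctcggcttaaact
Mcoln1 (chr8:3500428-3500499, plus strand): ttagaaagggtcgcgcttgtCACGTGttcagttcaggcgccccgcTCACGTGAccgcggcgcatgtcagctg
Atp6v0d1 (chr8:105566042-105566087, minus strand): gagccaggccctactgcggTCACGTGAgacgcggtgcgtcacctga
Atp6v1a (chr16:44139365-44139410, minus strand): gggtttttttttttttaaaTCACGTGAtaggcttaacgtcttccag
Lamp1 (chr8:13159080-13159171, plus strand): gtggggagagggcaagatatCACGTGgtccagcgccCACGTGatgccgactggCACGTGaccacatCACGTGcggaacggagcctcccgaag

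Counts of genes that passed between siLox and scr are given for each promoter class. For scale, 13.5% of all genes and 39.5% of the 38 were lower, and 11.5% and 5.26% were higher. Of the 6 genes with the core (Ctsa, Ctsd, Gla, Mcoln1, Atp6v0d1 and Atp6v1a), Ctsd was lower in siLox and 0 were higher, with a median difference of −0.07. Of the 6 with an E-box but no core (Ctsf, Ctsl, Lgmn, Glb1, Gaa and Lamp1), 5 were lower and the median was −0.35. Of the 20 with neither, 8 were lower and 1 higher with a median of −0.26, and Ctsk, Gm2a, Tpp1, Gusb, Ids, Lamp2 and Ctss were among them. Differences between these classes were not tested. A match is a description of letters, and its absence says only that they are not in this window.

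A wider list of 83 further lysosomal genes, all of them measured, held 24 that were lower in siLox than in scr and 5 that were higher, with a median difference of −0.07. Of the 83, 34.9% passed, against 25.0% of all genes. Lower were 28.9% of the 83 and higher 6.02% of the 83, against 13.5% and 11.5% of all genes. Soluble hydrolases (9 lower and 1 higher of 25), sorting receptors and tagging enzymes (4 lower of 7) and cathepsin inhibitors (2 lower of 5) had more lower than higher members. Of 13 further pump subunits 2 were lower and 1 was higher, of 15 further membrane proteins 4 were lower, and of 18 regulators and autophagy genes 3 were lower and 3 higher. The lower count was 10, 9, 6 and 26 without siLox replicate 1, 2, 3 or 4, and 17, 10, 7 and 28 without scr replicate 1, 2, 3 or 4. The higher count was 4, 2, 1 and 3 without siLox replicate 1, 2, 3 or 4, and 3, 3, 1 and 12 without scr replicate 1, 2, 3 or 4.

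Of the further genes that passed, the lowest differences were those of the endolysosomal ion channel Tpcn1 (−0.98 ± 0.17, limma adjusted p = 0.0115), the sorting receptor Sort1 (−0.89 ± 0.22, limma adjusted p = 0.0292) and Wipi1, which acts in autophagosome formation (−0.88 ± 0.15, limma adjusted p = 0.0106). The highest were those of the pump subunit Atp6v0a2 (0.39 ± 0.05, limma adjusted p = 0.00536), the autophagy receptor Sqstm1 (0.38 ± 0.10, limma adjusted p = 0.0342) and the acid phosphatase Acp5 (0.37 ± 0.08, limma adjusted p = 0.019). Only Sqstm1 of these 6 genes overlapped between the groups. Tpcn1, Wipi1 and Atp6v0a2 passed in 18 of the 19 alternatives, Acp5 in 15, Sort1 in 11 and Sqstm1 in 10.

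Between siLoxL1 and siLoxL2, on the second slide, 0 of the 38 lysosomal genes passed in the limma fit, while 8.81% of all genes did, 6.1% higher and 2.7% lower. Of all genes 1382 were higher and 612 lower, against 842 and 658 with quantile normalization. At an unadjusted p under 0.05, 4 of the 38 differed, against 27.1% of all genes, and the alternatives gave at most 1 higher and 2 lower gene. Differences ran from −0.21 to 0.19 with a median of 0.01, against a median of 0.03 for all genes. A second, dimmer Gaa probe lay outside this range at −0.27 and was past the threshold (limma adjusted p = 0.0489 over all probes). The brighter Gaa probe, which stood for the gene, gave 0.07. The groups did not overlap at 3 genes, Idua, Ctsc and Atp6ap1, against 20.3% of all genes.

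Idua, the iduronidase of glycosaminoglycan breakdown, had levels of 3.99, 4.11, 4.04 and 4.04 in siLoxL1, against 4.19, 4.27, 4.18 and 4.37 in siLoxL2. Its difference of −0.21 ± 0.05 fell just outside the threshold (limma adjusted p = 0.0504), and a second Idua probe gave −0.01. Ctsc, the cathepsin that activates serine proteases of leukocytes, had levels of 2.50, 2.54, 2.58 and 2.46 in siLoxL1, against 2.45, 2.28, 2.35 and 2.30 in siLoxL2 (0.18 ± 0.05, limma adjusted p = 0.0639). For Atp6ap1 the levels were 4.53, 4.57, 4.50 and 4.57 in siLoxL1, against 4.67, 4.68, 4.64 and 4.69 in siLoxL2 (−0.13 ± 0.04, limma adjusted p = 0.0624). These 3 genes did not overlap between the groups, though for Ctsc the nearest arrays almost met (2.46 in siLoxL1 and 2.45 in siLoxL2).

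Ctsk read 6.74, 6.69, 6.72 and 6.50 in siLoxL1, against 6.47, 6.54, 6.45 and 6.45 in siLoxL2, where siLoxL1 replicate 4 overlapped siLoxL2 (0.19 ± 0.06, limma adjusted p = 0.0971). Without that array Ctsk passed at 0.24 (limma adjusted p = 0.0338). Asah1 had levels of 4.38, 4.27, 4.14 and 4.46 in siLoxL1, against 4.63, 4.41, 4.47 and 4.46 in siLoxL2 (−0.18 ± 0.08). The membrane and sterol proteins with the largest differences were Npc2 (−0.11 ± 0.07) and Lamp1 (0.08 ± 0.04), and Atp6v1a stood at 0.10 ± 0.10. Tfeb had levels of −2.37, −2.47, −2.21 and −2.39 in siLoxL1, against −2.63, −2.29, −2.52 and −2.54 in siLoxL2 (0.13 ± 0.09), with overlapping groups. Of these 6 genes, only Ctsk passed under any of the 18 alternatives, in the fit just given.

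Several members that parted siLox from scr lay close together here. Gm2a averaged 0.55 ± 0.12 in siLoxL1 and 0.49 ± 0.04 in siLoxL2, Tpp1 3.08 ± 0.04 in siLoxL1 and 3.12 ± 0.07 in siLoxL2, and Ctss 2.04 ± 0.12 in siLoxL1 and 2.00 ± 0.10 in siLoxL2 (SD, n = 4 each). A p that misses the threshold does not show that levels were equal. The median SE over all genes was 0.07 here and 0.11 between siLox and scr. Macrophage and leukocyte markers summed to 47.2 to 51.9 in siLoxL1, against 45.4 to 49.9 in siLoxL2. Of the further 83 lysosomal genes 9.64% passed, a share close to the 8.81% of all genes: 3 were higher in siLoxL1 (Atp6v0a2 0.20, Tfe3 0.19 and Hgsnat 0.19) and 5 were lower. Among the lower were the GTPase Rragd (−0.53), the sulfatase Arsb (−0.36) and the pump subunit Tcirg1 (−0.34). Each array of the 8 that was left out lowered these counts, to between 0 and 3 higher and between 1 and 3 lower, except that 3 stayed higher without siLoxL1 replicate 1 or siLoxL2 replicate 1.

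**Figure D4:**
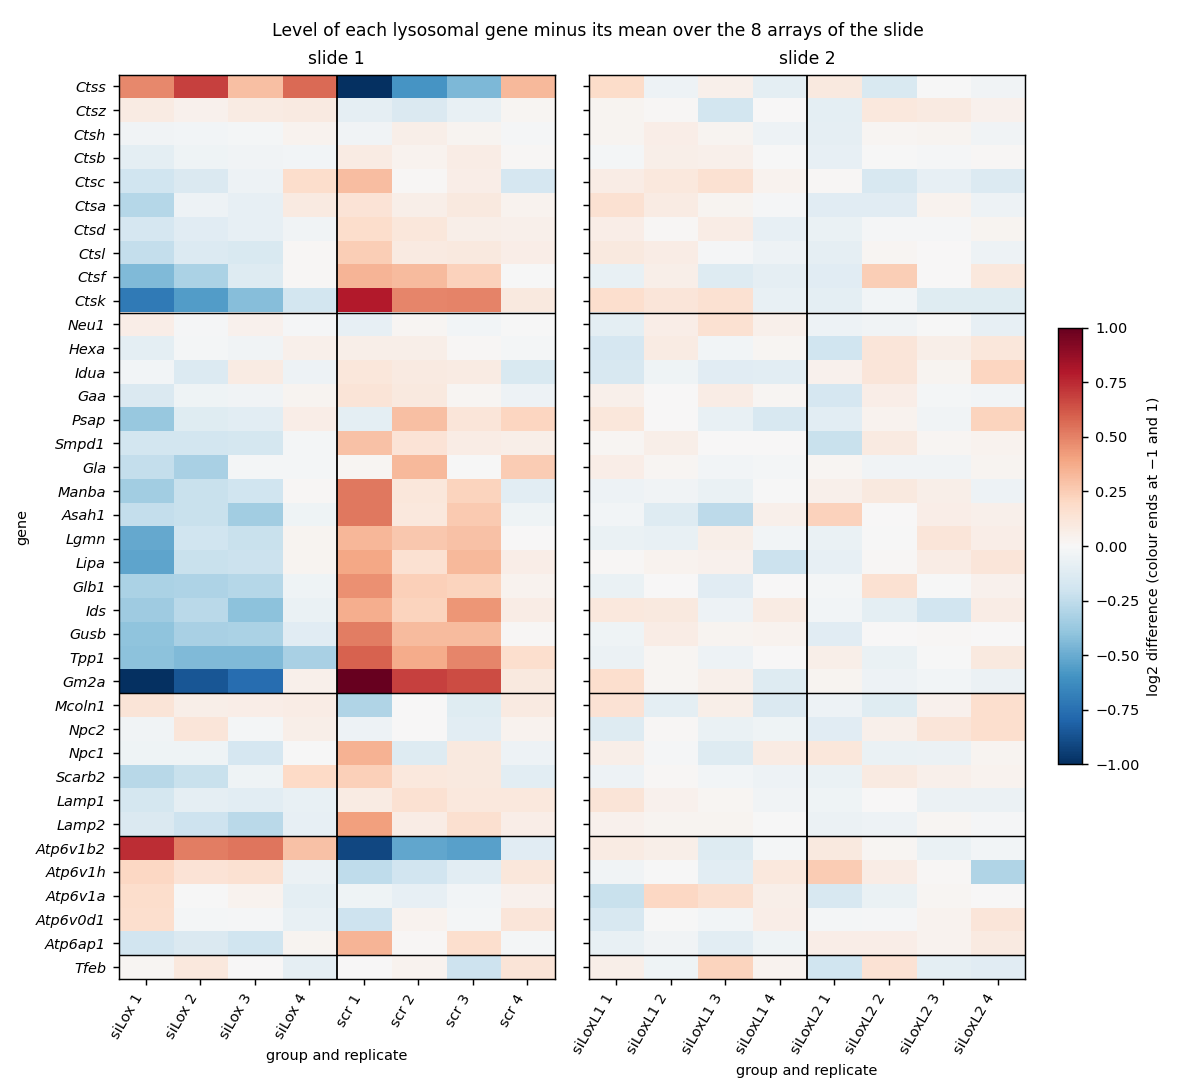
Level of each of the 38 lysosomal genes on every array minus its mean over the 8 arrays of the slide (log2, colours end at −1 and 1), with siLox left of scr on slide 1 and siLoxL1 left of siLoxL2 on slide 2, and genes grouped by role. On slide 1 the hydrolases are mostly below their mean in siLox replicates 1 to 3 and above it in scr replicates 1 to 3, with replicate 4 of both groups paler; on slide 2 no block of one colour is seen.

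Levels in siLoxL1 and siLoxL2 are set beside scr with the reservation that slide and siRNA cannot be told apart, and both comparisons use the same scr arrays. On slide 2 nearly all lysosomal genes stood above scr. In siLoxL1 34 were higher, 2 lower and 2 did not pass, where 62.0% of all genes passed, 41.5% higher and 20.5% lower. In siLoxL2 33 were higher, 1 lower and 4 did not pass, where 61.1% of all genes passed, 39.4% higher and 21.7% lower. The median difference of the 38 genes was 0.77 in siLoxL1 and 0.79 in siLoxL2, while that of all genes was 0.19 and 0.17. The groups did not overlap at 36 of the 38 genes in siLoxL1, against 58.2% of all genes, and at 33 in siLoxL2, against 57.3%. At an unadjusted p under 0.05, 37 of the 38 differed in siLoxL1, against 66.0% of all genes, and 35 in siLoxL2, against 65.3%. With normexp background correction the median of all genes was −0.07 in siLoxL1 and −0.09 in siLoxL2, and that of the 38 genes was 0.81 and 0.80. Higher calls were 66.9% of all calls in siLoxL1 and 64.5% in siLoxL2, against 45.3% and 43.8% with that correction and 55.9% and 54.0% with quantile normalization.

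Ctsk differed most, with a mean of 6.66 ± 0.11 in siLoxL1 and 6.48 ± 0.04 in siLoxL2, against 4.66 ± 0.29 in scr (SD, n = 4 each). The differences from scr were 2.00 ± 0.14 and 1.82 ± 0.13 (limma adjusted p = 1.21e-05 and 1.88e-05), and they stayed between 1.56 and 2.11 under all alternatives. Manba, Tpp1, Asah1, Gaa, Ctsa, Atp6ap1 and Ctsb followed in siLoxL2, with differences between 1.01 and 1.36. Ctsh, an aminopeptidase among the cathepsins, went the other way: it averaged 3.11 ± 0.05 in siLoxL1 and 3.07 ± 0.05 in siLoxL2, against 3.89 ± 0.04 in scr (SD, n = 4 each). Its differences of −0.78 ± 0.05 and −0.82 ± 0.05 passed in all 18 alternatives of both comparisons.

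The other members moved less evenly. Lamp1, Lamp2, Scarb2, Npc1 and Npc2 were higher in both groups, from 0.20 for Npc2 to 0.47 for Npc1 in siLoxL1 and from 0.23 for Lamp2 to 0.47 for Npc1 in siLoxL2. Mcoln1, counted above as higher by its brighter probe (0.82 and 0.84), had a second probe that went the other way, at −0.49 in siLoxL1 and −0.37 in siLoxL2, so no direction is given for that gene. Idua, also counted as higher by its brighter probe (0.40 in siLoxL1 and 0.61 in siLoxL2), had a second probe that did not pass in either group (0.03 and 0.05). In the pump, Atp6ap1, Atp6v1b2, Atp6v0d1 and Atp6v1a were higher in both groups, while Atp6v1h was lower in siLoxL1 (−0.26 ± 0.09, limma adjusted p = 0.0366) and did not pass in siLoxL2 (−0.24 ± 0.13, limma adjusted p = 0.145). Ctss and Gla did not pass in either group, and Tfeb passed in siLoxL1 (0.26 ± 0.09, limma adjusted p = 0.032) and not in siLoxL2 (0.13 ± 0.10). The Tfeb sign turned with normexp correction, at −0.17 and −0.24.

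**Figure D5:**
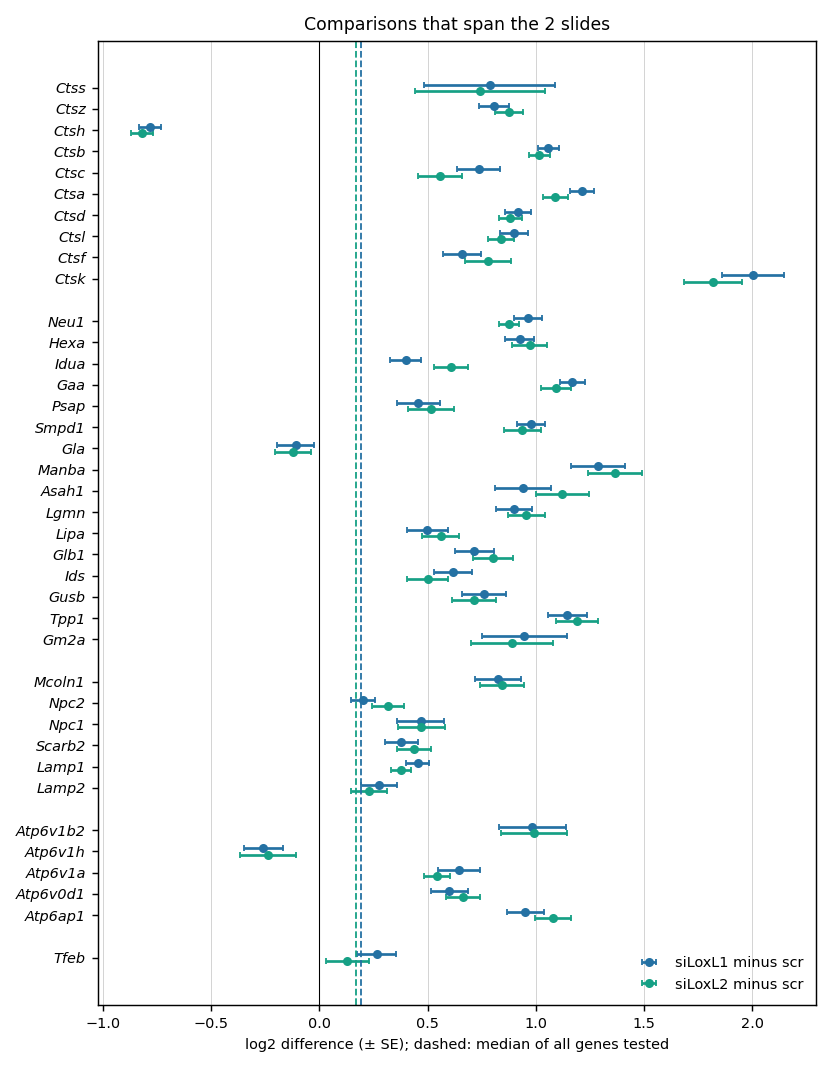
Log2 differences of the 38 lysosomal genes (± SE, x axis), siLoxL1 minus scr and siLoxL2 minus scr, with dashed lines at the median of all genes tested (0.19 and 0.17). Most genes lie right of the dashed lines, Ctsk farthest (2.00 and 1.82), and Ctsh lies farthest left (−0.78 and −0.82); groups and slides cannot be told apart here.

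Other measures moved with the slides. The epithelial keratins Krt8 and Krt18 were lower in siLoxL1 (−4.24 and −3.29) and siLoxL2 (−4.36 and −3.41) than in scr. Summed over the 3 of 7 epithelial markers measured, the signal was 0.495 to 0.658 on slide 2 and 4.75 to 7.12 on slide 1. Cdh1, Epcam, Sftpc and Sftpb had no probe that was kept. The third measured marker, Scgb1a1, was dim and did not pass (−0.09 in siLoxL1 and −0.02 in siLoxL2 against scr), so the change of the sum is that of the keratins. Macrophage and leukocyte markers summed to 45.4 to 51.9 on slide 2 and 27.9 to 42.7 on slide 1, but the 16 markers did not move one way. In siLoxL1 against scr 4 were higher (Itgam, Itgax, Lyz1 and Mrc1) and 3 lower (C1qa −1.57, Ptprc −0.38 and Cd14 −0.24), and in siLoxL2 against scr 5 were higher and 0 lower, with 7 differences below 0 in each. Of the 16 markers 43.75% passed in siLoxL1 and 31.25% in siLoxL2, against 62.0% and 61.1% of all genes. The part of these cells in the lysosomal levels was not tested. Of the 83 further lysosomal genes 59 were higher and 4 lower in siLoxL1, and 62 higher and 5 lower in siLoxL2, with medians of 0.48 and 0.52. That is 75.9% passed in siLoxL1, against 62.0% of all genes, and 80.7% in siLoxL2, against 61.1%.

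Among these further genes the cysteine protease inhibitor Cst6 was higher by 1.81 ± 0.10 in siLoxL1 and 1.68 ± 0.12 in siLoxL2, and Mitf, a transcription factor related to TFEB, by 1.48 ± 0.09 and 1.42 ± 0.08. The serpin Serpina3n, well above background on all siLoxL1 and siLoxL2 arrays but on 1 of the 4 scr arrays, averaged 0.35 ± 0.46 in siLoxL1 and 0.59 ± 0.28 in siLoxL2, against −4.84 ± 0.57 in scr (SD, n = 4 each), where its level is near background. Rragd, well above background on 2 of the 4 scr arrays, differed from scr by 1.91 in siLoxL2. The pump subunit Tcirg1 (−1.32 and −0.98), Sqstm1 (−0.92 and −0.80) and Zkscan3, a zinc finger repressor of lysosomal genes (−0.83 and −0.93), were lower in siLoxL1 and siLoxL2 than in scr.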

How the data were processed

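RNA of 16 samples was read on one-colour Agilent arrays with probes placed on mouse build mm9. The authors deposited scanner files from Agilent Feature Extraction 10.7.3.1 with an intensity per spot, already background-subtracted and detrended per the file headers, with flags for background, saturation and outliers. The authors also deposited a value table in log2, whose columns have nearly identical distributions (quantile normalized, as seen from the values).

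Here log2 processed intensity minus the 75th percentile of non-control probes on each array was used. Outlier spots were left out, and 0 spots were saturated. Spots of a probe were averaged, and probes that no group showed well above background on its 4 arrays were dropped. The brightest kept probe stood for its gene. Each comparison was fitted over its 8 arrays with limma 3.58.1 in R 4.3.3 (lmFit, eBayes) and Benjamini-Hochberg adjustment over 22644 genes. The number of arrays limits precision. Probe names were updated through the RefSeq table of GRCm38.p6, which held 28026 probes, and 0 of the 51 member probes were renamed.

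In simulated data for 22644 genes, 67 were changed by 0.5, 67 by 1 and 66 by 2 (log2), with independent noise. The siLox against scr fit recovered 44.8%, 71.6% and 89.4% of them and called 5 unchanged genes. The siLoxL1 against siLoxL2 fit recovered 71.6%, 95.5% and 98.5% and called 12 unchanged genes. Far more genes passed in the data (25.0% and 8.81% of all genes), so these rates need not hold there. All members are accounted for by role. Values on every array are given within a slide for up to 4 members of each role that passed, by size of the difference, for the 2 largest where none passed, and for Tfeb. Exceptions are Npc2, Lamp1 and Atp6v1a between siLoxL1 and siLoxL2, given as differences only, and Lamp1 in scr, given as a range. Of the further genes, up to 3 that passed are named in each direction. Other members with values, and the promoters printed (those with the core, and Lamp1), were chosen after their values were seen. The members and lists were chosen with earlier results of these data known. Alternatives were normexp background correction, quantile normalization, the authors' value table, other filters on dim probes, 1 fit of 16 arrays, the mean of a gene's probes, outlier spots kept, array weights, a replicate block and leaving out arrays.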

Additional observations from a re-analysis of the deposited data

Results flagged for a closer look

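In 7 of 152 sets of 4 arrays (38 genes in 4 groups), 1 array stood apart from the other 3 by Dixon's test at 95%, a share of 4.61%, and chance gives about 1 in 20. In siLox, replicate 4 was the highest array for Glb1 (2.36, the nearest at 2.12) and for Smpd1 (4.45, the nearest at 4.29), both genes that were lower in siLox than in scr. In siLoxL1, replicate 3 was the lowest for Ctsz (6.05, the nearest at 6.23) and for Ids (0.65, the nearest at 0.78), and replicate 4 was the lowest for Lipa (2.14, the nearest at 2.36). In siLoxL2, replicate 1 was the lowest for Gusb (3.86, the nearest at 3.97). In scr, replicate 4 was the lowest for Idua (3.46, the nearest at 3.69).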

How the results depend on the processing

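Between siLox and scr, 15 lysosomal genes were lower and 2 higher; without a filter on dim probes 6 were lower and 1 higher, and with array weights 4 were higher. With quantile normalization, and in the value table of the authors, 11 were lower, without Asah1, Ctsd, Ctsl and Lamp1. Leaving out 1 array gave 3 to 16 lower and 1 to 4 higher genes. Over all genes 5655 passed, against 2969 with no filter, 9745 with 16 arrays in 1 fit, 9443 with array weights, and 1830 to 7828 with 1 array left out. Same-numbered siLox and scr arrays did not deviate together (correlations of −0.119, −0.0205, −0.002 and −0.186). They shared a column of the slide, and whether the samples were paired is not given. With the replicate block 0 lysosomal genes were lower, 0 higher, and 3 of all genes passed. Tfeb changed sign with normexp correction (−0.045), without siLox replicate 2 (−0.013) and without scr replicate 3, and ran from −0.047 to 0.065 with 1 array left out. Between siLoxL1 and siLoxL2, 1 gene was higher with normexp correction (Ctsc) and with array weights, and 0 to 1 with 1 array left out. Lower were 2 genes with quantile normalization and with the authors' value table (Idua and Atp6ap1), and 1 with array weights and with a background filter in both groups. Of all genes 1994 passed, against 647 with no filter, 905 with 16 arrays in 1 fit, 853 with the replicate block, where the same-numbered correlations were 0.121, 0.215, 0.126 and 0.0434, and 609 to 1409 with 1 array left out. In siLoxL1 against scr, 1 to 2 genes were lower with 1 array left out. In siLoxL2 against scr, 3 were lower with normexp correction and 2 with quantile normalization or the value table. With no filter more genes were tested, and 21473 and 20789 of them passed (61.8% and 59.9%), against 14035 and 13842 (62.0% and 61.1%). The cause of the other changes was not tested. Signal over background limits Tfeb, the dimmest of the 38 genes, and further genes near background in siLox and scr.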
